A study of Mus musculus with 17 samples.

Results

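Expression of 9 genes by which type 2 conventional dendritic cells (cDC2s) are commonly told from type 1 cells (cDC1s) was followed in bulk RNA sequencing of murine splenic cDCs. They were Sirpa, Clec10a, Cd209a, Clec4a1, Tarm1, Mgl2, Irf4, Zeb2 and Klf4, picked by name, and all 9 were found among the 31091 Ensembl gene identifiers of the count table. The question was how far their expression differs between cDC2s and cDC1s, and whether it changes in either subset on exposure to dying tumor cells. The 17 samples form 6 groups. CD11c+ spleen cells, a mixture of both subsets, were cultured for 6 h with medium of TC-1 WT, apoptotic TC-1-iBimS or necroptotic TC-1-iRIPK3 cells. cDC2s (3, 3 and 2 samples) and cDC1s (3 samples each) were then sorted from these cultures. Each subset thus met the medium in the presence of the other. TC-1 is a murine lung carcinoma line. TC-1-iBimS and TC-1-iRIPK3 are clonal lines in which cumate switches on the BH3-only protein BimS or a self-oligomerizing RIPK3; WT, iBimS and iRIPK3 cells were all given cumate, and the medium was passed on with its debris, so the WT medium is the control for both. All cDCs came from spleens of female C57BL/6JRj mice, bought at 8 weeks of age and then given B16 tumors that secrete FLT3 ligand, which expands cDCs. Spleens of at least 2 mice were pooled, and the cDCs were flow sorted after culture. The paper's culture protocol adds GM-CSF to improve cell survival.

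cDC2s present antigen mainly to CD4+ T cells, whereas cDC1s take up dying cells and cross-present their antigens to CD8+ T cells. Lineage choice between these subsets rests on transcription factors: IRF8 and BATF3 maintain cDC1s, whereas IRF4 and KLF4 serve cDC2 development and function and ZEB2 opposes the cDC1 program. The surface of cDC2s carries SIRPα, an inhibitory receptor for CD47, and a set of C-type lectins that bind sugars on glycoproteins and microbes.

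Between 16095159 and 21645289 reads were assigned to genes per sample, and 3 counts, used here as the floor of detection, correspond to 0.135 to 0.194 counts per 1000000 (CPM, scaled with TMM factors). The sort used SIRPα and CD11b protein to select cDC2s and XCR1 and CD8α to select cDC1s, and the transcripts followed it: in WT medium Itgam, which encodes CD11b, was at 47.4 ± 5.64 CPM in cDC2s and 0.682 ± 0.189 in cDC1s, and Xcr1 was at 0.507 ± 0.0590 and 152 ± 6.50 (SD, n = 3 each). Transcripts of Cd4 and Esam, which mark the larger part of splenic cDC2s in untreated mice, were close to absent from these cDC2s (1.34 ± 0.224 and 0.562 ± 0.0889 CPM in WT medium). Of 14 monocyte and macrophage markers the summed level was 75.7 to 123 CPM in cDC2 samples and 126 to 247 CPM in cDC1 samples, with Cd14 the largest single part. In WT medium Cd14 averaged 33.7 CPM in cDC2s and 136 in cDC1s, Fcgr1 15.2 and 5.00, Csf1r 18.6 and 2.51, Apoe 11.5 and 15.7, Lyz2 6.94 and 24.8, and Ly6c2 and C1qa less than 1 in both. In cDC2s the list had a median log2 difference of -0.38 with BimS and -0.31 with RIPK3 medium: Cd14 rose with both (0.46 ± 0.121 and 0.87 ± 0.132, adjusted p = 0.0233 and 0.000227), Fcgr1 fell by 0.65 ± 0.157 with RIPK3 medium (adjusted p = 0.0128), and the other markers passed with neither. In a fit blocked by replicate number, 1 rose and 2 fell with each medium, close to the 21.3% and 21.4% of all genes called there. Their part in the cDC2 results was not tested. In bulk samples, fewer cells of a type and less RNA per cell cannot be told apart. The labels do not say whether replicates came from separate cultures, so p-values measure only the spread between these samples, which may be technical.

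The stretches before the start sites of 4 of the genes are shown for reading beside their levels: Irf4, Tarm1 and Zeb2 because their RNA changed with the medium, and Clec4a1 because a match to a composite ETS-IRF site was found there. Each line gives 250 bases upstream of a RefSeq start site (table build GRCm38.p6), 5′ to 3′ on the gene's strand, with capitals marking motif matches.
Irf4: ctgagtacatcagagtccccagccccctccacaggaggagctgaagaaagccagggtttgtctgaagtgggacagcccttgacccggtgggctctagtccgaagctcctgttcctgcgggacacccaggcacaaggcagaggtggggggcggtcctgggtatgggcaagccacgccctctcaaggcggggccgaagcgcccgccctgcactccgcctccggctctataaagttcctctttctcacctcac
Tarm1: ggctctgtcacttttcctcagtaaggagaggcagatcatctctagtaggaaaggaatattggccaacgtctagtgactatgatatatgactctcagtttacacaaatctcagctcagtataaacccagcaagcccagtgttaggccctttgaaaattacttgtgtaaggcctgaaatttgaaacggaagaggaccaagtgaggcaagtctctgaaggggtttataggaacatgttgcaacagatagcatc
Zeb2: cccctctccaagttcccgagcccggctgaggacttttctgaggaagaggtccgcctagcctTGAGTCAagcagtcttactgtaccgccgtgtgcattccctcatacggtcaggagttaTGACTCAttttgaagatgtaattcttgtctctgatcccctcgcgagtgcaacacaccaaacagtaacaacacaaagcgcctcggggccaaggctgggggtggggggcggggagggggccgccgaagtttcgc
Clec4a1: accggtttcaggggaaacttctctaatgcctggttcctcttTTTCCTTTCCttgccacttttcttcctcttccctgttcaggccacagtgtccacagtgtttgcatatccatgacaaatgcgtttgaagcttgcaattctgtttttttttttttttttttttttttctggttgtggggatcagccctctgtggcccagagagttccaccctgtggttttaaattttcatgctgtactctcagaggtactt
Each of these occurs once in GRCm39, at chr13:30932966-30933215 (plus strand) for Irf4, chr7:3551141-3551390 (minus strand) for Tarm1, chr2:45000290-45000539 (minus strand) for Zeb2, here the start site farthest downstream of 4, and chr6:122898557-122898806 (plus strand) for Clec4a1. The Zeb2 and Clec4a1 stretches lie inside the gene as GENCODE M39 draws it, downstream of its outermost start. A set of 5 motifs was searched on both strands in all 7 genes that the RefSeq table holds (it has no entry for Sirpa and Clec10a). They were the composite ETS-IRF site GGAANNGAAA, a tandem IRF core GAAANNGAAA, the AP-1 site TGANTCA, the ZEB E-box CACCTG and the KLF box CCACACCC, of which the first and second can overlap. The Clec4a1 stretch held the composite ETS-IRF site on the reverse strand, which 2.30% of 32851 mouse promoter windows of this length hold. The Zeb2 stretch held the AP-1 site at 2 places (6.75% of windows hold it). The Irf4 and Tarm1 stretches held none of the 5, nor did those of Cd209a, Mgl2, Klf4 and the other 3 Zeb2 starts. The tandem IRF core, ZEB E-box and KLF box, found in none of the 10 windows of these genes, occur in 2.98%, 17.2% and 3.20% of windows. These matches describe the letters only.

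All 9 genes were higher in cDC2s than in cDC1s, and for none did any cDC1 sample reach the lowest cDC2 sample. The genes stand here because they are known for this difference, and Sirpa protein was part of the sort, so the gaps are given as a description without a test. With medium as a covariate, 29.4% of 19082 genes tested were significantly higher in cDC2s, and 14.8% were higher without overlap of the samples.

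**Figure D1:**
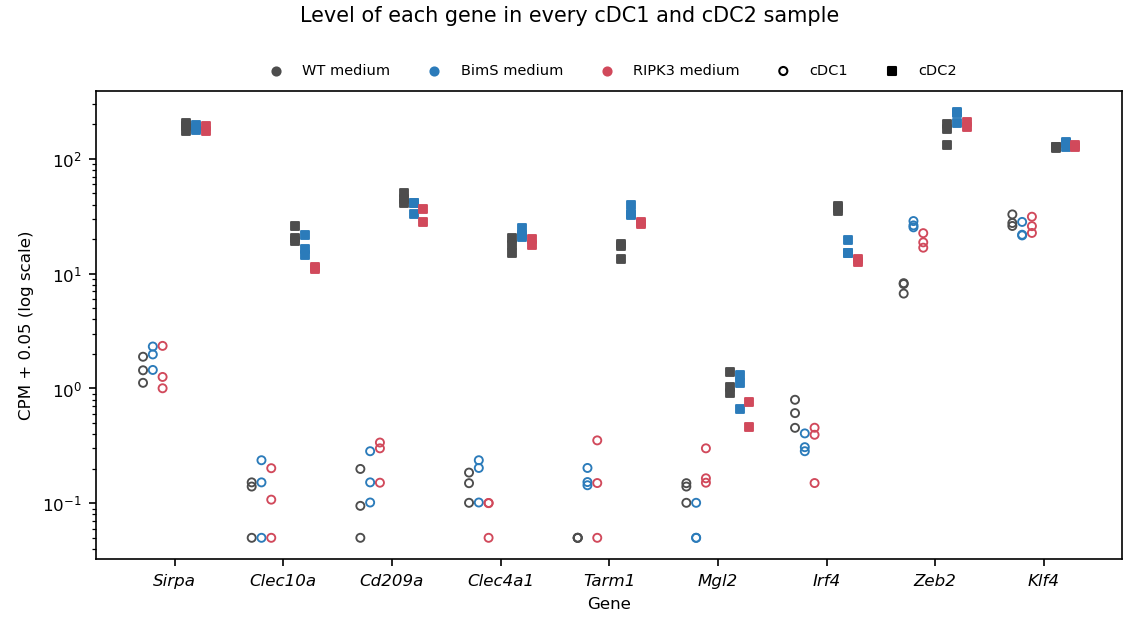
Level of each of the 9 genes (CPM + 0.05, log scale) in each of 9 cDC1 samples (open circles) and 8 cDC2 samples (filled squares), colored by medium. No cDC1 sample reaches a cDC2 sample for any gene; the gap between the nearest samples is 1.63-fold for Mgl2 and 75.5-fold for Sirpa.

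The surface receptors other than Mgl2 showed the widest gaps. Sirpa (ENSMUSG00000037902, chr2:129434039-129474148, plus strand, here and below in GRCm39 by GENCODE M39) ranged from 174 to 206 CPM over the 8 cDC2 samples and from 0.954 to 2.30 CPM over the 9 cDC1 samples. The log2 difference was 6.88 ± 0.0971 (SE), or 118-fold. A further 4 receptors had at most 6 reads in any cDC1 sample, so their ratio is given from the summed counts with an interval that covers counting error only. Cd209a (ENSMUSG00000031494, chr8:3793397-3798984, minus strand), a mouse relative of the pathogen receptor DC-SIGN, had 5623 counts in cDC2s and 24 in cDC1s, a ratio of 299 (95% interval 201 to 467, exact binomial) over all media. By medium it was 704 (274 to 2584) with WT, 294 (149 to 682) with BimS and 154 (87.9 to 299) with RIPK3 medium, on 4, 8 and 12 counts in cDC1s. Clec10a (ENSMUSG00000000318, chr11:70047023-70061660, plus strand), a lectin for terminal galactose and N-acetylgalactosamine also called MGL1, had 2501 and 14 counts, a ratio of 228 (136 to 417). Clec4a1 (ENSMUSG00000049037, chr6:122896122-122911578, plus strand), of the DCIR lectin family, had 2787 and 16 counts, a ratio of 222 (137 to 389). Tarm1 (ENSMUSG00000053338, chr7:3533019-3551140, minus strand), an activating receptor of myeloid cells that signals through the Fc receptor γ chain, had 3646 and 15 counts, a ratio of 310 (188 to 555). By medium (WT, BimS and RIPK3) the ratio was 341, 175 and 159 for Clec10a and 183, 171 and 539 for Clec4a1. For Tarm1 it was 302 with BimS and 196 with RIPK3 medium. These ratios rest on 2 to 8 counts in cDC1s. In WT medium no Tarm1 read was found in the 3 cDC1 samples, and the lowest cDC2 sample was at least 88.2-fold higher than the floor of 3 counts per library. These 5 receptors thus were nearly restricted to cDC2s at the RNA level.

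Mgl2 (ENSMUSG00000040950, chr11:70020954-70028376, plus strand), which encodes CD301b, the close relative of Clec10a, was low even in cDC2s. Its counts were 26, 17 and 16 in the WT samples, 10, 21 and 21 in the BimS samples and 11 and 7 in the RIPK3 samples, against 0 to 5 in the 9 cDC1 samples. The ratio of summed counts over all media was 11.0 (95% interval 6.41 to 20.2), and by medium it ran from 3.51 (1.5 to 8.87) with RIPK3 to 59.4 (10.2 to 2392) with BimS medium, the latter on 1 count in cDC1s. Clec10a and Mgl2 share 243 stretches of 54 bases, the read length, which are 7.58% of those of Clec10a and 9.46% of those of Mgl2, so that some reads could come from either.

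The transcription factors differed less than the receptors other than Mgl2, and not by the same margin. Irf4 (ENSMUSG00000021356, chr13:30933209-30950959, plus strand) was at 12.6 to 39.1 CPM in cDC2s and at most 0.747 CPM in cDC1s (2 to 15 counts), a log2 difference of 5.86 ± 0.121 (58.1-fold). Zeb2 (ENSMUSG00000026872, chr2:44873644-45007464, minus strand) was at 133 to 255 CPM in cDC2s and 6.66 to 28.7 CPM in cDC1s, a log2 difference of 3.62 ± 0.188 (12.3-fold). Klf4 (ENSMUSG00000003032, chr4:55527139-55532528, minus strand) was at 125 to 140 CPM in cDC2s and 21.5 to 32.8 CPM in cDC1s, a log2 difference of 2.30 ± 0.0707 (4.93-fold). Klf4 was thus well expressed in both subsets, and Zeb2 was detected in every cDC1 sample, whereas Irf4 was close to the floor there. On the exons of Zeb2, 3.83% of bases also lie in its antisense gene Zeb2os; whether counting used the strand is not given in the sources used here, so reads there could belong to either.

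Per kilobase of exon, the levels in cDC2s with WT medium were in the order Klf4 (40.1 ± 0.471 CPM per kb, SD, n = 3), Cd209a (28.6 ± 2.93), Sirpa (27.4 ± 2.35), Zeb2 (7.59 ± 1.56), Irf4 (7.56 ± 0.408), Clec10a (7.56 ± 1.22), Clec4a1 (6.65 ± 0.993), Tarm1 (4.01 ± 0.605) and Mgl2 (0.461 ± 0.107). Cd209a and Sirpa differed by less than their SDs, and so did Zeb2, Irf4 and Clec10a among themselves, and Clec4a1 from Zeb2 and Clec10a. In cDC1s with WT medium Klf4 was at 9.16 ± 1.12 CPM per kb and Zeb2 at 0.337 ± 0.0379, and the other 7 genes were at or below 0.205.

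Within cDC2s, the identity genes did not move together when the cells met dying tumor cells. Irf4 fell with both media, Tarm1 rose with both, and Clec10a and Cd209a fell with RIPK3 medium. Sirpa, Klf4 and Mgl2 passed with neither medium. With BimS medium, 1 of 9 genes rose and 1 fell, where 7.01% of all 19239 genes tested changed (3.80% rose and 3.21% fell), and with RIPK3 medium 1 rose and 3 fell, where 7.21% of genes changed (3.93% rose and 3.28% fell). With BimS medium, leaving out 1 sample gave 2 to 4 genes called, and with the replicate number as a block 6 of 9 were called, where 21.3% of all genes were. The median log2 difference of the 9 genes was -0.02 and -0.07, against -0.02 over all genes in each comparison. These comparisons share the 3 WT samples.

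**Figure D2:**
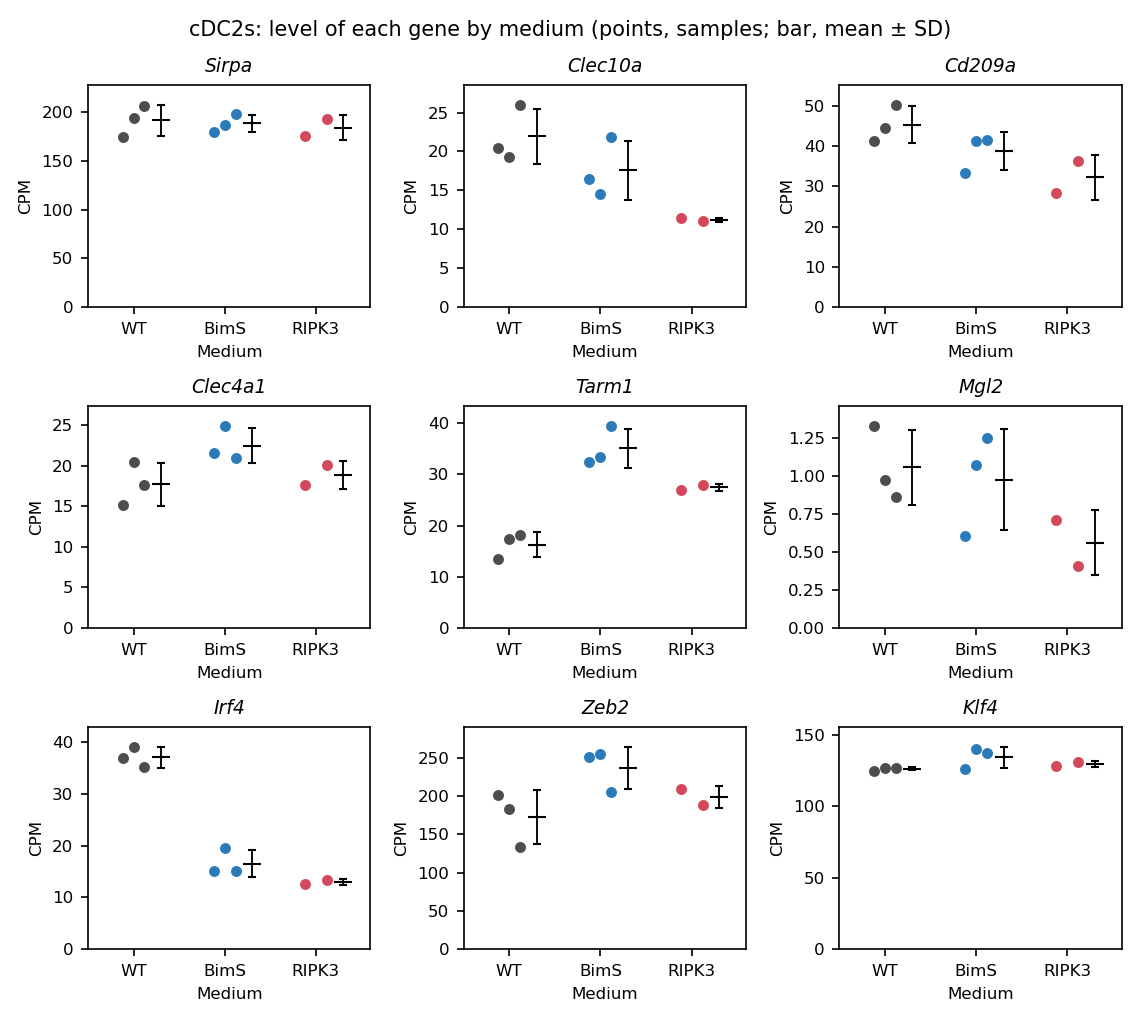
Level of each gene (CPM, linear axis from 0) in cDC2s by medium, with 1 point per sample and the mean ± SD of the group as a bar. Irf4 lies at 35.1 to 39.1 CPM with WT medium and at 12.6 to 19.5 CPM with BimS or RIPK3 medium, while Sirpa and Klf4 overlap or nearly overlap between media.

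Irf4 had the largest point estimate of the 9 genes with either medium. It was at 37.0, 39.1 and 35.1 CPM in the WT samples, 15.1, 19.5 and 15.0 CPM in the BimS samples and 12.6 and 13.4 CPM in the RIPK3 samples. All 5 samples with debris lay below all 3 WT samples. The log2 fold change was -1.16 ± 0.113 with BimS medium (2.23-fold lower, adjusted p = 8.74e-07) and -1.52 ± 0.134 with RIPK3 medium (2.86-fold lower, adjusted p = 2.42e-07). Both calls held under every alternative tried, the highest adjusted p being 5.65e-05 and 0.000193. In cDC1s Irf4 also had fewer counts with debris (5 to 7 and 2 to 8, against 9 to 15 with WT medium), a log2 difference of -0.99 ± 0.485 with BimS medium and a level 1.99-fold lower with RIPK3 medium, neither of which passed the test (adjusted p = 0.214 and 0.192). The difference between subsets in this response was -0.17 with BimS medium (95% interval -1.18 to 0.84) and -0.51 with RIPK3 medium (-1.50 to 0.47).

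Tarm1 moved the opposite way. The WT samples were at 13.5, 17.3 and 18.1 CPM, the BimS samples at 32.5, 33.3 and 39.5 CPM and the RIPK3 samples at 27.0 and 27.9 CPM. No sample with debris overlapped a WT sample, and the BimS samples were the highest. It rose by 1.11 ± 0.116 on the log2 scale with BimS medium (2.15-fold, adjusted p = 2.23e-06) and by 0.75 ± 0.129 with RIPK3 medium (1.68-fold, adjusted p = 0.000651). In cDC1s Tarm1 had 0, 0 and 0 counts with WT medium, 3, 2 and 2 with BimS medium and 6, 2 and 0 with RIPK3 medium, for which no fold is given. The test called the latter (adjusted p = 0.0438), but the call was lost under 4 other settings and on leaving out any of 6 of the cDC1 samples, DESeq2 gave no adjusted p, and the stricter filter of edgeR (filterByExpr) did not keep the gene for testing.

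The lectins Clec10a and Cd209a had their lowest group means with RIPK3 medium. Clec10a was at 20.5, 19.3 and 26.0 CPM in the WT samples, 16.4, 14.5 and 21.8 CPM in the BimS samples and 11.4 and 11.0 CPM in the RIPK3 samples. Both RIPK3 samples lay below every other cDC2 sample, whereas the WT and BimS samples overlapped. The log2 fold change with RIPK3 medium was -0.98 ± 0.165 (1.97-fold lower, adjusted p = 0.000558). With BimS medium it was -0.32 ± 0.139 (adjusted p = 0.208), but BimS was the lower in all 3 pairs of samples with the same replicate number, and with the replicate number as a block the adjusted p was 0.000755. Cd209a was at 41.2, 44.4 and 50.3 CPM in the WT samples, 33.3, 41.4 and 41.5 CPM in the BimS samples and 28.3 and 36.2 CPM in the RIPK3 samples. It fell with RIPK3 medium by 0.50 ± 0.129 on the log2 scale (1.41-fold lower, adjusted p = 0.0199). That call was lost without RIPK3 replicate 1 (-0.33, adjusted p = 0.372) or without WT replicate 2 (-0.51, adjusted p = 0.0663). With BimS medium the difference was -0.23 ± 0.113 (adjusted p = 0.302, and 0.00150 with the block).

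Clec4a1 and Zeb2 were higher in every BimS sample than in every WT sample, but neither difference passed the test without the block. Clec4a1 was at 15.1, 20.4 and 17.6 CPM in the WT samples, 21.5, 24.9 and 20.9 CPM in the BimS samples and 17.6 and 20.1 CPM in the RIPK3 samples. Its log2 difference was 0.34 ± 0.121 with BimS medium (adjusted p = 0.103, and 0.000226 with the block) and 0.08 ± 0.137 with RIPK3 medium (adjusted p = 0.839). Zeb2 was at 202, 183 and 133 CPM in the WT samples, 251, 255 and 205 CPM in the BimS samples and 209 and 189 CPM in the RIPK3 samples. Replicate 3 was the lowest in both the WT and the BimS group. The log2 difference was 0.46 ± 0.143 with BimS medium (1.37-fold, adjusted p = 0.0936), higher in 3 of 3 pairs by 1.24- to 1.54-fold, with an adjusted p of 2.47e-25 with the block and 0.00868 with DESeq2. With RIPK3 medium it was 0.19 ± 0.159 (adjusted p = 0.604), and 1.03-fold in both pairs.

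Sirpa, Klf4 and Mgl2 did not pass the test with either medium. Sirpa was at 174, 194 and 206 CPM in the WT samples, 180, 187 and 198 CPM in the BimS samples and 175 and 193 CPM in the RIPK3 samples. The groups overlapped fully, and the 95% intervals of the log2 difference were -0.20 to 0.15 with BimS medium and -0.26 to 0.13 with RIPK3 medium. Klf4 was at 125, 127 and 127 CPM, at 126, 140 and 137 CPM and at 128 and 131 CPM in the same order, with intervals of -0.08 to 0.25 and -0.15 to 0.21. Mgl2 was at 0.863 to 1.33 CPM, 0.608 to 1.25 CPM and 0.410 to 0.711 CPM, and its intervals were wide (-0.83 to 0.60 and -1.85 to -0.02, adjusted p = 0.908 and 0.258).

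**Figure D3:**
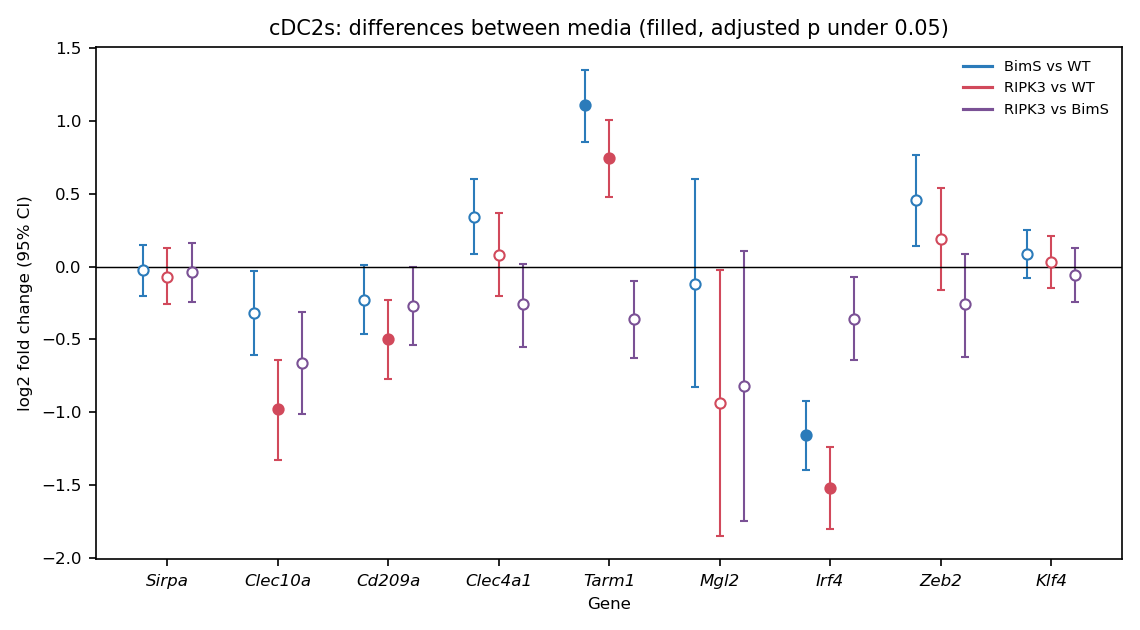
Log2 fold change of each gene between media in cDC2s, with the 95% interval; filled points passed an adjusted p of 0.05. Irf4 and Tarm1 passed with both BimS and RIPK3 medium, Clec10a and Cd209a with RIPK3 medium, and no gene passed between RIPK3 and BimS medium.

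Between the necroptotic and the apoptotic medium, none of the 9 genes passed the test in cDC2s, where 0.379% of all genes did. Of the 9 genes, 4 had an unadjusted p under 0.05 (8.59% of all genes had), and DESeq2, which called 1.28% of all genes, called 1, Clec10a (adjusted p = 0.0439). All 9 point estimates were below 0, with a median of -0.27 against 0.00 over all genes. That of Sirpa changed sign with the replicate block and on leaving out RIPK3 replicate 1. Sirpa, Mgl2 and Klf4 were each higher with RIPK3 medium in 1 of 2 pairs. With the replicate number as a block, where 14.3% of all genes were called, 6 genes were called lower with RIPK3 medium: Clec10a (-0.50, adjusted p = 0.000132), Zeb2 (-0.40, 6.24e-13), Irf4 (-0.41, 0.00110), Clec4a1 (-0.29, 0.0202), Tarm1 (-0.28, 0.0100) and Cd209a (-0.21, 0.0408). This block fit compares 2 pairs, since the RIPK3 group holds 2 samples.

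In cDC1s, Zeb2 rose with both kinds of debris. It was at 8.22, 6.66 and 8.08 CPM with WT medium, 28.7, 26.3 and 25.3 CPM with BimS medium and 22.5, 18.7 and 16.8 CPM with RIPK3 medium. The 3 groups did not overlap, with BimS the highest. It rose by 1.80 ± 0.104 on the log2 scale with BimS medium (3.49-fold, adjusted p = 1.37e-15) and by 1.34 ± 0.107 with RIPK3 medium (2.52-fold, adjusted p = 5.55e-12). Between RIPK3 and BimS medium the log2 difference was -0.47 ± 0.0930 (adjusted p = 0.00163), a call lost in a fit of all 17 samples (adjusted p = 0.211). Of the 9 genes, 1 was called with BimS medium (Zeb2), 2 with RIPK3 medium (Zeb2 and, on few counts, Tarm1) and 1 between them (Zeb2), where 13.2%, 16.5% and 4.15% of 19513 genes were called. Summed monocyte and macrophage markers in cDC1s were at 169 to 228 CPM with WT medium, 126 to 174 CPM with BimS medium and 160 to 247 CPM with RIPK3 medium, so that the media overlapped. That sum is mostly Cd14; of 13 of these markers tested, 0 rose, 2 fell with BimS medium (Fcgr1 by 1.03 and C1qc by 1.61 on the log2 scale) and 1 fell with RIPK3 medium (Fcgr1, by 2.12). With the replicate block 6 were lower with BimS medium, Cd14 among them, and 2 with RIPK3 medium, where 17.9% and 21.0% of all genes were called. Their part in the Zeb2 result was not tested.

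Klf4 in cDC1s was at 27.6, 32.8 and 26.0 CPM with WT medium, 21.8, 28.2 and 21.5 CPM with BimS medium and 22.6, 31.3 and 25.9 CPM with RIPK3 medium. Replicate 2 was the highest in each group and the groups overlapped. The log2 differences were -0.27 ± 0.149 (adjusted p = 0.347, and 0.000983 with the block) and -0.11 ± 0.148 (adjusted p = 0.721). Sirpa in cDC1s was at 1.07 to 1.84, 1.40 to 2.27 and 0.954 to 2.30 CPM (adjusted p = 0.497 and 0.973). Clec10a, Cd209a, Clec4a1 and Mgl2 never exceeded 5 counts in a cDC1 sample, and no change in them passed the test.

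The Zeb2 gap between subsets narrowed with debris. cDC1s held 4.43% of the cDC2 level with WT medium, 11.3% with BimS medium and 9.72% with RIPK3 medium, and the log2 gap was 4.49 ± 0.170, 3.15 ± 0.0825 and 3.36 ± 0.0943. The difference between the responses of cDC2s and cDC1s was -1.35 ± 0.217 with BimS medium (adjusted p = 0.00572) and -1.13 ± 0.232 with RIPK3 medium (adjusted p = 0.0260). In these tests 0.859% and 1.14% of 19082 genes were called, and Zeb2 was the only one of the 9 identity genes in either. Both tests treated cDC1 and cDC2 samples as independent, although the subsets were sorted from mixed cultures. With the replicate number as a block, 1 of the 9 genes was called in each, where 442 and 449 of all genes were. The test with RIPK3 medium was lost on leaving out any of 7 single samples: WT or RIPK3 replicate 1 or 2 of the cDC1s, WT replicate 2 of the cDC2s, and either RIPK3 sample of the cDC2s (adjusted p 0.0543 to 0.149). For Klf4 the log2 gap was 2.12 ± 0.0913, 2.50 ± 0.0876 and 2.28 ± 0.0986, and the difference between responses did not pass (adjusted p = 0.440 and 0.870). None of the 9 genes passed in the test of RIPK3 against BimS medium between subsets, where 0.0314% of genes did, DESeq2 called 0, and 1 had an unadjusted p under 0.05.

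**Figure D4:**
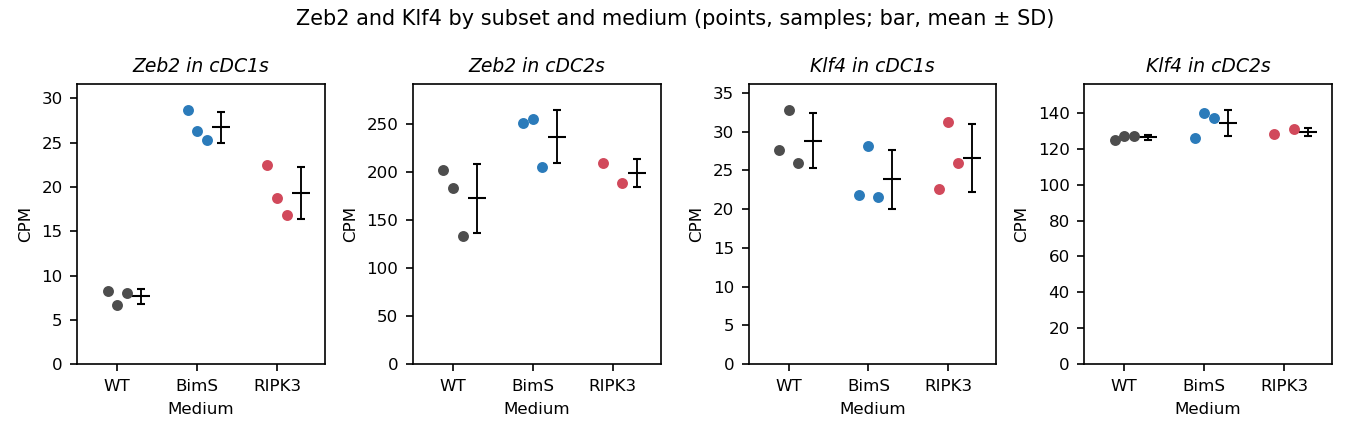
Zeb2 and Klf4 (CPM, linear axes from 0, with 1 scale per panel) in cDC1s and cDC2s by medium; points are samples and bars the mean ± SD. Zeb2 in cDC1s lies at 6.66 to 8.22 CPM with WT medium and at 16.8 to 28.7 CPM with debris, a 3.49-fold difference of BimS from WT medium, against 1.37-fold in cDC2s.

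Other genes linked to cDC2s gave a mixed picture. Of 28 such genes, 26 could be tested between the subsets. There 18 were higher in cDC2s than in cDC1s, where 29.4% of all genes tested were. A further 6 were lower (Rbpj, Clec12a, Ltbr, Lyz2, Csf2rb and Cd24a), so that the list is not made up of cDC2-high genes alone. Of the 28, 5 rose and 0 fell in cDC2s with BimS medium, and 6 rose and 1 fell with RIPK3 medium, with median log2 differences of 0.05 and 0.07 against -0.02 over all genes. Of all 19239 genes tested, 3.80% rose and 3.21% fell with BimS medium, and 3.93% rose and 3.28% fell with RIPK3 medium. With the replicate block, 10 of the list rose and 2 fell with BimS medium, and 9 rose and 4 fell with RIPK3 medium, where 21.3% and 21.4% of all genes were called. Esam, an adhesion molecule that marks Notch-dependent splenic cDC2s, rose by 1.98 ± 0.305 and 1.81 ± 0.341 on the log2 scale, from 0.562 CPM to 2.23 and 1.99 CPM (adjusted p = 0.000221 and 0.00150). Dtx1, a Notch target, rose by 1.19 ± 0.189 and 1.49 ± 0.204 (adjusted p = 0.000307 and 5.07e-05), and Clec4n, which encodes the fungal receptor Dectin-2, by 0.80 ± 0.0935 and 0.71 ± 0.103 (adjusted p = 1.02e-05 and 8.46e-05). The gene that fell with RIPK3 medium was Ms4a4c, by 0.45 ± 0.111 on the log2 scale (adjusted p = 0.0137). In cDC1s, Esam and Clec4n rose as well, among 4 that rose and 3 that fell of 24 tested with BimS medium, and 5 and 3 with RIPK3 medium, where 13.2% and 16.5% of all genes were called in either direction. Esam rose there by 2.04 ± 0.406 and 2.38 ± 0.393 on the log2 scale (adjusted p = 0.000330 and 1.56e-05). This was from 0.254 CPM, near the floor with at most 8 counts in a WT sample, to 1.08 and 1.37 CPM. Cd300a, an inhibitory receptor, rose in cDC1s by 0.94 ± 0.0585 and 0.80 ± 0.0590 (adjusted p = 4.92e-15 and 3.62e-13). Fcgr3, a low-affinity IgG receptor, had log2 fold changes of -0.57 ± 0.0760 and -0.91 ± 0.0785 (adjusted p = 3.87e-07 and 1.79e-11). Clec4n rose in cDC1s by 2.02 ± 0.0561 and 1.89 ± 0.0559 (adjusted p = 7.22e-24 and 2.96e-23).

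Among 22 other transcription factors of the cDC lineages, 3 rose and 3 fell in cDC2s with BimS medium, and 4 rose and 3 fell with RIPK3 medium, where 7.01% and 7.21% of all genes were called. With the block, 6 rose and 6 fell, and 7 rose and 7 fell, where 21.3% and 21.4% of all genes were called. The list's median log2 differences were 0.02 and -0.13, against -0.02 over all genes in both. Cebpb, a factor of myeloid and inflammatory gene expression, rose by 1.48 ± 0.240 and 1.84 ± 0.260 on the log2 scale (adjusted p = 0.0115 and 0.00578), and Prdm1, the repressor BLIMP-1, by 0.78 ± 0.109 and 0.68 ± 0.120 (adjusted p = 0.000167 and 0.00134). Bcl6, a transcriptional repressor, had log2 fold changes of -0.69 ± 0.111 and -0.94 ± 0.128 (adjusted p = 0.000346 and 4.66e-05). In cDC1s, 3 rose and 5 fell with BimS medium, and 3 rose and 6 fell with RIPK3 medium, where 13.2% and 16.5% of all genes were called, and the list's medians were -0.10 and -0.09. Cebpb rose there by 1.36 ± 0.167 and 1.75 ± 0.166 (adjusted p = 0.00172 and 0.000323) and Prdm1 by 1.21 ± 0.0786 and 1.38 ± 0.0785 (adjusted p = 2.52e-10 and 2.05e-11). Bcl6 fell by 0.55 ± 0.0519 and 0.57 ± 0.0521 (adjusted p = 2.73e-10 and 7.20e-11). Irf8, the cDC1 counterpart of Irf4, had log2 fold changes of -0.75 ± 0.0564 and -0.82 ± 0.0566 there (adjusted p = 3.67e-12 and 3.97e-13). Of the related genes in the same families, 20 were in the table, and in cDC2s 1 of these, the DCIR gene Clec4a4, rose with both media (0.48 ± 0.142 and 0.63 ± 0.156, adjusted p = 0.0450 and 0.0140). Clec4a4 is also counted among the other cDC2 genes above. With the block 3 of the related genes rose and 1 fell with each medium, close to the 21.3% and 21.4% of all genes called there.

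Genes with the profile most like each member were sought over the 8 cDC2 samples among 7780 genes of sufficient level. For Irf4 these were Scd2 and Nsmaf (Pearson r = 0.989 and 0.988), for Tarm1 Tma16 and Vps37c (0.987 and 0.986), for Zeb2 Hycc1 and Glyr1 (0.995 and 0.994) and for Clec10a Nup133 and Nde1 (0.979 and 0.967). These values describe 8 samples that share 3 media and 3 replicate numbers, and the best of many candidates is high by selection.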

How the data were processed

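RNA of sorted cDCs was sequenced as poly(A)-enriched libraries. Per the labels and methods, the authors trimmed adapters with SeqPurge, aligned reads with STAR (2.7.10a) to GRCm39 and deposited raw read counts per Ensembl gene with gensum, plus a table of log2 normalized values in which each deposited count is scaled to a common library total and 1 is added. Counts were the main input here; the log2 table served as an alternative. No identifier stood on 148 lines (0.0258 to 0.0366% of counts per sample), which were left out. Symbols and coordinates came from GENCODE M39 (30854 of 31091 identifiers matched).

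Groups were tested with edgeR (4.0.16, R 4.3.3) quasi-likelihood tests, robust, with TMM factors, on genes detected in 50% or more of a fit's samples, and Benjamini-Hochberg adjustment over all genes tested (threshold 0.05). The 8 cDC2 and the 9 cDC1 samples were fitted apart; the subset difference and the difference of responses used all 17. All 9 members passed the filter in each fit, several of them in cDC1s at a few counts. Errors of fold changes are SE, those of levels SD. Ratios of summed counts have exact binomial (Clopper-Pearson) 95% intervals. Genes were named because they are members; of the other cDC2 genes and the lineage transcription factors, the 3 called genes with the largest change in each comparison with WT medium were named, and further genes after their values were seen. The members and lists were chosen with earlier results of these data known. Alternatives were DESeq2 (1.42.0), RLE factors, other filters, limma (3.58.1), a joint fit, a replicate block and leaving out each sample.

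Replicate numbers, taken from the labels, entered only the pair ratios and the block fit. The main tests held no replicate term and treated all samples as independent. Deviations of same-numbered samples from their group means correlated above 0.1 in 9 of 9 pairs of cDC1 samples (median r = 0.324). They did so in 7 of 7 pairs of cDC2 samples (median r = 0.427). Across subsets they did so in 14 of 16 same-numbered pairs with other media (median r = 0.219). With the same medium it was 5 of 8 (median r = 0.139). Blocked values stand beside a result of the 9 genes where they change its call; for other lists the text gives only counts of blocked calls where these differ by over 1.5 times. No pair of replicate libraries agreed within sampling noise.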

Additional observations from a re-analysis of the deposited data

Results flagged for a closer look

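The Zeb2 response differed between cDC2s and cDC1s in a direct test of the difference. With BimS medium the log2 response of cDC2s minus that of cDC1s was -1.35 (edgeR, adjusted p = 0.00572), and with RIPK3 medium it was -1.13 (adjusted p = 0.0260), a call lost on leaving out any of 7 of the 17 samples. Zeb2 was higher in all 3 cDC1 pairs with either medium, by 3.13- to 3.95-fold with BimS medium and 2.08- to 2.81-fold with RIPK3 medium, and in cDC2s by 1.24- to 1.54-fold in 3 pairs and 1.03-fold in 2 pairs.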

How the results depend on the processing

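Over all results and alternatives, 1806 of 1854 values kept their side of the threshold, 21 lost and 27 gained a call. The sign changed in 51, of which 0 were called in either fit: 31 on leaving out a sample, 17 with limma and 3 under other settings. The number of genes called in cDC2s with BimS against WT medium, 2, became 4 without a filter on low counts, 4 in the joint fit of all 17 samples and 6 with the replicate block (21.3% of all genes, against 7.01%). Between RIPK3 and BimS medium in cDC2s, 0 became 1 with DESeq2, without a filter and with limma on unnormalized log2 counts, and 6 with the replicate block. In cDC1s, the 1 gene called with BimS medium became 2 without a filter and with the replicate block; the 2 called with RIPK3 medium became 1 with DESeq2, filterByExpr, no filter and all 3 uses of limma; and the 1 called between RIPK3 and BimS medium became 0 in the joint fit. The cause was not tested. The block fit of the cDC2s leaves 3 residual degrees of freedom per gene and borrows its spread from all genes. The replicate block changed no other count over the 9 genes by over 1.5 times. Leaving out single samples gave 2 to 4 genes with BimS and 3 to 4 with RIPK3 medium in cDC2s, and 0 to 1 between them. In cDC1s it gave 1 to 2 genes with BimS medium and 1 to 2 with RIPK3 medium. It gave 0 to 1 for the difference of responses with RIPK3 medium; the other 4 comparisons kept their count. Depth limits Clec10a, Cd209a, Clec4a1, Tarm1 and Mgl2 in cDC1s and Mgl2 in cDC2s. Where leaving out a RIPK3 sample leaves 1 in the cDC2 group, that sample was assumed to vary like the others.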
